A study of Rattus norvegicus with 25 samples.

Results

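The 10 genes described here are used as markers of contractile and perivascular cells. Acta2, Myh11, Tagln and Cnn1 encode contractile proteins of smooth muscle, and Rgs5, Pdgfrb, Notch3, Mcam, Kcnj8 and Abcc9 mark pericytes and other mural cells. They were picked by symbol, as known markers, from the 16881 gene symbols of the count tables, and 9 of the 10 were abundant enough to enter the test, among 11492 tested genes. Notch3 was not.

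The libraries came from the tooth and periodontal ligament of Sprague-Dawley rats, all labelled as postnatal day 21 (the labels do not say at which step that age applies). A maxillary molar was extracted, left dry outside the mouth, put back into its socket and collected later. In immediate replantation (IR) the tooth was dry for 5 min and in delayed replantation (DR) for 60 min, and each was sampled 3 and 7 days after replantation, with 6 libraries per group. A single library labelled NT and control stands beside these 24, and the labels do not spell out NT. The labels name no separate animals, so p-values measure the spread between these libraries, which may be technical.

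Mural cells wrap the endothelial tube of blood vessels. Smooth muscle cells encircle arteries and larger veins, hold the contractile apparatus and set vessel tone, while pericytes sit on capillaries inside the basement membrane. Endothelial PDGF-B recruits mural cells through the receptor Pdgfrb, Notch3 signalling maintains them, and an ATP-sensitive potassium channel built from Kcnj8 and Abcc9 relaxes them. Myofibroblasts, the contractile fibroblasts of wounds, share Acta2 and Tagln with smooth muscle, and the myoepithelial cells of glands share Acta2, Cnn1 and Myh11. Mcam is also carried by endothelial cells and Pdgfrb by fibroblasts. In bulk tissue, fewer cells of a type and less RNA per cell cannot be told apart.

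Contractile genes are known targets of serum response factor, which binds the CArG box. The 250 bases before the transcription start are shown for the contractile genes Acta2 and Cnn1, to compare members that varied together across libraries, and for Kcnj8 and Abcc9, which are neighbours in the gene order and encode the subunits of a single channel. The sequences are from RefSeq (rat build GRCr8), 5′ to 3′ on the gene's own strand, and capitals mark a CArG-like stretch, here CC, then 6 bases of which at least 5 are A or T, then GG. The strict form has A or T at all 6.
Acta2, chr1:241172504-241172753, minus strand: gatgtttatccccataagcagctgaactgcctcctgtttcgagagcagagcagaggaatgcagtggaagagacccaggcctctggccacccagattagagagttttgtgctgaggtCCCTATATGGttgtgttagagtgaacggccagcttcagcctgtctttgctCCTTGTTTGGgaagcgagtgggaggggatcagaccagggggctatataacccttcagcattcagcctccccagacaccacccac
Cnn1, chr8:28908187-28908436, plus strand: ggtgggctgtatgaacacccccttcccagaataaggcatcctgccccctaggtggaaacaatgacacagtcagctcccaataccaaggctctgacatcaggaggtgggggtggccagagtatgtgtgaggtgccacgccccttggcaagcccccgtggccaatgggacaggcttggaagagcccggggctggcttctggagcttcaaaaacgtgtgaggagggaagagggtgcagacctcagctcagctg
Kcnj8, chr4:177246549-177246798, minus strand: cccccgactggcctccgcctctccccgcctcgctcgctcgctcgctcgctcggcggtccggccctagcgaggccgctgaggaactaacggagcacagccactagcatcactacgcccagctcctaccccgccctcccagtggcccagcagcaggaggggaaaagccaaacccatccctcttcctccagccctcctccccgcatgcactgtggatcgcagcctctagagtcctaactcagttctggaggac
Abcc9, chr4:177386349-177386598, minus strand: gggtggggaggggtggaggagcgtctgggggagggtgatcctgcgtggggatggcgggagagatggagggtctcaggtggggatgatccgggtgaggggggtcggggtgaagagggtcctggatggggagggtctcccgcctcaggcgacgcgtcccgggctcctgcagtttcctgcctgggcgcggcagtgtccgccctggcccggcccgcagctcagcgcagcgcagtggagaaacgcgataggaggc
Acta2 held the stretch at 2 places, CCCTATATGG from 134 to 125 bases and CCTTGTTTGG from 84 to 75 bases before the start. Neither matches the strict form. The same search in windows of 300 bases (250 before to 50 after the start) found at least 1 CArG-like stretch in 9.27% of 27457 promoters and 2 or more in 0.852%, on either strand since the pattern reads alike on both. Among the 6 members with a promoter in the table (Acta2, Cnn1, Rgs5, Notch3, Kcnj8 and Abcc9), Acta2 was the only one with a match, and the strict CArG box, present in 1.64% of all promoters, was in 0 of them. An E box, CAGCTG, was in the windows of Acta2, Cnn1 and Abcc9 and in 15.1% of all promoters. A match describes letters and not a bound site.

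The 3′ counting used here gives about 1 count per transcript end, so levels are set between genes without a correction for length. That holds as far as the ends of different genes are counted alike, which was not tested. Levels below are CPM, a gene's count relative to the library's total on the usual CPM scale, with totals adjusted by TMM over the 25 libraries. Over the 24 replanted libraries the mean level was highest for Acta2 at 262 CPM, followed by Tagln at 97.2, Myh11 at 73.8, Mcam at 46.6, Cnn1 at 31.7, Abcc9 at 20.6 and Pdgfrb at 19.0. Kcnj8 at 2.55 and Rgs5 at 1.62 CPM were far lower, and Notch3 was at 0.0748. The SDs over the 24 were 73.9 for Acta2, 21.8 for Tagln, 49.7 for Myh11, 25.5 for Mcam, 31.6 for Cnn1, 10 for Abcc9 and 10.3 for Pdgfrb. The steps from Acta2 to Tagln, from Pdgfrb to Kcnj8 (SD 2.08) and from Rgs5 (SD 1.29) to Notch3 (SD 0.178) exceed these spreads, and the other neighbours in the order do not differ beyond them. The highest library exceeded the lowest by 37.7-fold for Cnn1, 14.8-fold for Myh11, 12.5-fold for Abcc9 and 9.7-fold for Mcam, but by 3.11-fold for Acta2 and 2.71-fold for Tagln.

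Several libraries at day 3 held high levels of gland genes, and the highest Cnn1 and Myh11 levels lay in some of them. Total counts ranged from 5043739 to 8811662 in the replanted libraries (8553992 in NT), of which ribosomal RNA took 9.73% to 33.8% (2.91% in NT). Genes of a lipid-secreting gland (9 genes, among them the fatty acid elongase Elovl3) took more than 1% of counts in 4 libraries, DR day 3 replicates 1 to 3 and IR day 3 replicate 6, with summed levels of 13400 to 30900 CPM against 21.3 to 3910 at day 7. Thrsp (10700 to 25000 CPM in the 4), Elovl3 (1400 to 2720) and Mogat1 (1210 to 3150) carried that sum. Other genes of the list did not follow, since Awat1 and Awat2 were at 0 in the 4, Soat1 was at 1.01 to 3.81 CPM against 6.45 to 31.7 at day 7, and Elovl4 and Fa2h overlapped the day 7 range, while the scarce receptor Mc5r was higher in the 4 (4.35 to 13.3 CPM against 0 to 1.51). The list's name is used below as a label for libraries high in these genes and does not identify a tissue. Genes of a nasal gland (10 genes, odorant-binding and BPI-fold proteins) took 24.7% and 29.1% of counts in IR day 3 replicates 3 and 4. A nasal gland share over 10% is called high here, and libraries under that cutoff were not free of these genes. Their share was 8.51% in IR day 7 replicate 6, 5.88% in DR day 7 replicate 6 and 5.41% in DR day 3 replicate 4. The lipid gland share also had values between, at 0.544% in DR day 3 replicate 5, 0.442% in DR day 7 replicate 5 and 0.241% in DR day 3 replicate 6. The epithelial adhesion gene Epcam was at 427 to 616 CPM in the 4 libraries of high lipid gland share, at 214 and 228 in the 2 of high nasal gland share, and at 21.4 to 175 at day 7. The keratins of basal and myoepithelial cells were lower in the same 4 libraries than at day 7. Krt14 was at 36.4 to 59.5 CPM against 124 to 658 at day 7, Krt5 at 3.82 to 10 against 10.1 to 44.8, and Krt17 at 32.3 to 166 against 245 to 2670. The 6 day 3 libraries of low gland share overlapped the 4, with Krt14 at 18.5 to 1500 CPM, Krt5 at 1.37 to 100 and Krt17 at 50.6 to 2450. Krt8 went the other way, at 128 to 225 CPM in the 4 against 7.77 to 115 at day 7, and Krt18 overlapped the day 7 range. The periodontal ligament gene Postn was at 2810 CPM in NT, 327 to 961 at day 7 and as low as 5.23 at day 3. Differences between days, drying differences at day 3 and correlations are given with and without these libraries.

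**Figure D1:**
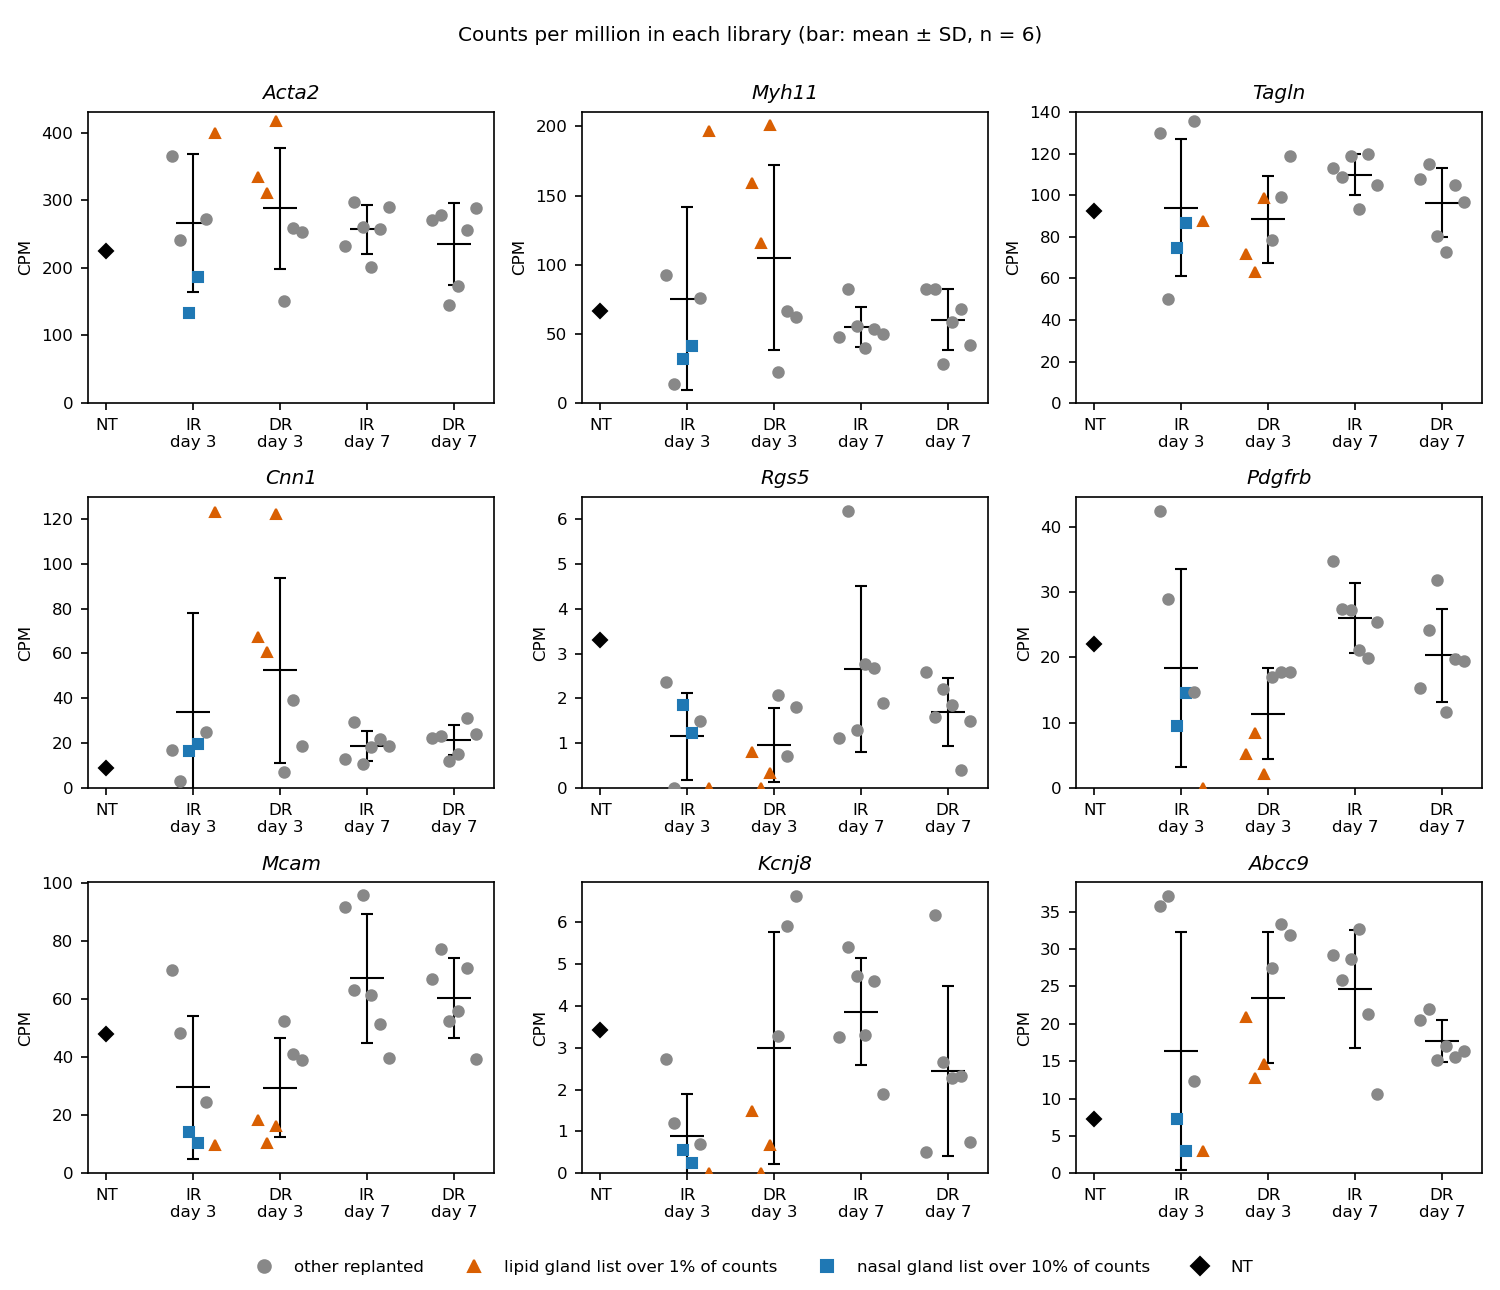
CPM (vertical axes, each starting at 0) of the 9 tested members in each of 25 libraries, by group, with the mean and SD of each group of 6 as bars (lower ends below 0 are not drawn). Triangles are the 4 libraries with over 1% of counts in lipid gland genes, which sit highest for Myh11 and Cnn1 and lowest or near lowest for Pdgfrb and Mcam. Squares are the 2 with over 10% in nasal gland genes.

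Acta2 encodes the smooth muscle actin of arteries and myofibroblasts. Its lowest, median and highest levels were 134, 257 and 400 CPM in IR day 3, 151, 285 and 417 in DR day 3, 202, 259 and 298 in IR day 7, and 145, 263 and 288 in DR day 7. The medians lie close together and all 4 groups overlap. The highest values, in DR day 3 replicate 3 (417) and IR day 3 replicate 6 (400), were in libraries of high lipid gland share, where the 4 values ran from 311 to 417 CPM.

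Tagln, which encodes the actin-binding protein transgelin, had the narrowest fold range among the members with counts in every library. Its lowest, median and highest levels were 50.1, 87.4 and 136 CPM in IR day 3 and 63.3, 88.5 and 119 in DR day 3. At day 7 they were 93.6, 111 and 120 in IR and 72.9, 101 and 115 in DR. The groups overlap. Unlike Acta2, Tagln was not high in the 4 libraries of high lipid gland share, where it ran from 63.3 to 98.7 CPM, so Acta2 stood at 4.22 to 4.91 times Tagln there. Elsewhere that ratio was 1.79 to 2.98, apart from IR day 3 replicate 2 at 4.80.

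Myh11, the smooth muscle myosin heavy chain, and Cnn1, the actin-binding protein calponin, followed each other. Myh11 had a lowest, median and highest level of 13.6, 58.4 and 197 CPM in IR day 3 and 22.7, 91.6 and 201 in DR day 3. At day 7 it was at 39.8, 51.8 and 82.1 CPM in IR and 28.1, 63.1 and 82.8 in DR. The day 3 groups thus span the day 7 groups on either side.

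Cnn1 ran from 3.26 (IR day 3 replicate 2) to 123 CPM (IR day 3 replicate 6) in IR day 3, with a median of 18.4, and from 7.14 to 122 in DR day 3, with a median of 50.1. At day 7 the lowest, median and highest were 10.7, 18.7 and 29.7 CPM in IR and 12.1, 22.9 and 31.2 in DR. Its high values were the libraries of high lipid gland share. Those 4 held Cnn1 at 60.8 to 123 CPM and Myh11 at 116 to 201. The 20 other replanted libraries held Cnn1 at 3.26 to 39.3 and Myh11 at 13.6 to 92.9, without overlap for either gene. Some of the 20 held a lipid gland share under the cutoff. Cnn1 was at 39.3 CPM in DR day 3 replicate 5 (share 0.544%), 31.2 in DR day 7 replicate 5 (0.442%) and 18.8 in DR day 3 replicate 6 (0.241%). The highest Myh11 of the 20 was in IR day 3 replicate 1, with a share of 0.00292%. How many of all tested genes separate these 4 libraries in the same way was not counted, so the gap may not be particular to Cnn1 and Myh11. The 2 libraries of high nasal gland share were not high, with Cnn1 at 16.5 and 19.8 CPM and Myh11 at 31.8 and 41.2. The part of gland RNA in these levels was not tested.

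Among the pericyte genes, Mcam, which encodes the adhesion molecule CD146, was the most abundant. Its lowest, median and highest levels were 9.86, 19.5 and 70.1 CPM in IR day 3 and 10.3, 28.6 and 52.5 in DR day 3. At day 7 they were 39.8, 62.1 and 95.6 in IR and 39.4, 61.2 and 77.0 in DR. Day 7 was higher by the medians, but the days overlap through day 3 libraries of low gland share, such as IR day 3 replicate 1 at 70.1 and DR day 3 replicate 4 at 52.5. All 6 libraries of high gland share were low, between 9.86 and 18.2 CPM, and the other 6 day 3 libraries lay between 24.5 and 70.1. How many of all tested genes show such a gap was not counted, so it may not be particular to Mcam.

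Pdgfrb, the receptor for PDGF-B, had a lowest, median and highest level of 0, 14.7 and 42.4 CPM in IR day 3 and 2.21, 12.7 and 17.8 in DR day 3. At day 7 they were 19.9, 26.3 and 34.8 in IR and 11.6, 19.6 and 31.9 in DR. The groups overlap. The 4 libraries of high lipid gland share were at 0 to 8.44 CPM, below each of the other 20 replanted libraries (9.44 to 42.4), which is the reverse of Cnn1. The share of all tested genes with such a gap was not counted here either. In IR day 3 replicate 6, Pdgfrb had 0 counts, where 3 counts would correspond to between 0.317 and 0.741 CPM across the libraries.

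Abcc9 encodes the sulfonylurea receptor subunit of the mural potassium channel. Its lowest, median and highest levels were 2.96, 9.83 and 37.1 CPM in IR day 3, 12.7, 24.2 and 33.4 in DR day 3, 10.6, 27.2 and 32.7 in IR day 7, and 15.2, 16.7 and 22.0 in DR day 7. IR day 3 held both the lowest and the highest library, and DR day 7 was the narrowest group. Abcc9 was lowest in 2 libraries of high gland share of either kind, IR day 3 replicate 4 (nasal, 2.96) and replicate 6 (lipid, 3.02).

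Kcnj8, the pore subunit of the same channel, was scarce. In IR day 3 it was at 0, 0.623 and 2.73 CPM (lowest, median and highest), in DR day 3 at 0, 2.38 and 6.61, in IR day 7 at 1.90, 3.95 and 5.39, and in DR day 7 at 0.521, 2.30 and 6.17. All 4 groups overlap. Its counts ran from 0 to 41 per library, so single values carry a large counting error, and Abcc9 was more abundant in all 24 libraries. Kcnj11, the other pore subunit that pairs with this receptor family, was at 0 to 8.63 CPM, and Abcc8, the pancreatic and neuronal receptor, at 0 to 1.18.

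Rgs5, a regulator of G-protein signalling and a common pericyte marker, was scarcer still, with 0 to 47 counts per library and none in 3 of the 24. Its lowest, median and highest levels were 0, 1.37 and 2.36 CPM in IR day 3, 0, 0.768 and 2.08 in DR day 3, 1.13, 2.29 and 6.18 in IR day 7, and 0.411, 1.72 and 2.60 in DR day 7. The groups overlap, and IR day 7 replicate 2 alone (6.18 CPM) lay above NT. Notch3, the receptor that maintains arterial smooth muscle, had 14 counts in all, in 5 replanted libraries, with at most 5 in any of them and 0 in NT. A 3′ count near 0 is a statement about the counted transcript end and does not show that the gene is off.

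NT was set beside the replanted libraries with no test, since it is a single library, and its intervals are exact 95% Poisson intervals that cover counting error only. It lay above all 24 for 0 of the 10 members, where this held for 9.1% of all tested genes, and below all 24 for 0 members, against 6.06%. For Acta2 (225 CPM, interval 215 to 235), Myh11 (66.6, 61.2 to 72.3), Tagln (92.5, 86.1 to 99.2), Mcam (48.1, 43.6 to 53.1) and Pdgfrb (22.1, 19.1 to 25.5) it sat inside the day 7 range. Members at the edge were Cnn1 and Abcc9. Cnn1 was at 8.99 CPM (7.08 to 11.3) in NT, below 22 of the 24 replanted libraries and all 12 of day 7, and 0.441 times the day 7 median of 20.4. Abcc9 was at 7.22 CPM (5.52 to 9.27), also below 22 of 24 and all 12 of day 7, and 0.345 times their median of 20.9. Rgs5 was at the other edge, at 3.31 CPM (2.20 to 4.79), above 23 of the 24 replanted libraries, and Kcnj8 was at 3.43 (2.30 to 4.93).

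The contrast of DR with IR asks what the longer dry period changed. At day 3 edgeR's quasi-likelihood test called 0 of the 9 tested members after Benjamini-Hochberg adjustment over all tested genes, and 0 with an unadjusted p under 0.05. It called 0% of all genes (313 of 11492 with an unadjusted p under 0.05), DESeq2 called 0 members, and limma-voom with sample quality weights called 1 (Abcc9, 1.48 on the log2 scale, limma adjusted p = 0.0236) among 10.3% of all genes. The difference closest to the threshold was Kcnj8, at 1.65 on the log2 scale in DR over IR (SE 0.821, edgeR adjusted p = 0.983). The other 8 lay between -0.69 (Pdgfrb, SE 0.612) and 0.62 (Cnn1, SE 0.612), and the median of the 9 was 0.11 beside -0.039 for all genes.

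Leaving out libraries moved the day 3 values. Of the 4 libraries of high lipid gland share, DR holds 3 and IR 1. Without IR day 3 replicate 6, Cnn1 was at 1.68 (SE 0.530, edgeR adjusted p = 0.0685) and Myh11 at 1.04 (adjusted p = 0.231). Without all 6 libraries of high gland share, Cnn1 was at 0.49 (SE 0.610) and Acta2 and Myh11 turned to -0.41 and -0.28. Kcnj8 kept its direction, at 1.76 without the 6 and 2.20 without the 4 of high lipid gland share (edgeR adjusted p = 0.909 and 0.434). In the 18 libraries left, 3 DR day 3 libraries held Kcnj8 at 3.27 to 6.61 CPM and 3 IR day 3 libraries at 0.691 to 2.73. These levels rest on 22 to 41 and 6 to 22 counts. The share of all genes that separate 3 from 3 libraries in this way was not counted, so the values do not show an effect of drying.

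At day 7 no library passed the cutoffs for a high gland share. Still, the nasal gland share reached 8.51% in IR and 5.88% in DR, and the lipid gland share 0.442% in DR. The drying contrast again called 0 members, with 0% of all genes called (206 with an unadjusted p under 0.05). DESeq2 and limma-voom also called 0 members. No member had an unadjusted p under 0.05. All 5 tested pericyte genes were lower in DR, by -0.15 (Mcam, SE 0.437), -0.35 (Pdgfrb, SE 0.604), -0.48 (Abcc9, SE 0.477), -0.65 (Kcnj8, SE 0.782) and -0.65 (Rgs5, SE 0.768), each at about its SE or less. The contractile genes lay between -0.19 (Tagln, SE 0.200) and 0.19 (Cnn1, SE 0.613). These errors pool the wider day 3 spread and leave out the pairing of day 7 libraries by number described below, so the values do not show that drying left the members alone. A fit of the day 7 libraries alone with replicate number as a block also called 0 members, and 0 of 10782 genes. Averaged over days, 0 members and 0% of genes were called, and the test of whether the drying difference itself changed between days also called 0 members and 0% of genes (197 and 346 genes, respectively, with an unadjusted p under 0.05).

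The contrast of day 7 with day 3 asks what changed over that time in the socket. Averaged over both dry periods, 18.8% of all tested genes were called (2156 of 11492, 797 of them higher), and 1 of the 9 tested members, Mcam. Counting calls in either direction, that share of the members is not above the background. Mcam rose by 1.10 on the log2 scale, or 2.14-fold (SE 0.313, edgeR adjusted p = 0.0200, n = 12 per day). Of the remaining pericyte genes, Rgs5 was at 0.99 (SE 0.557), Kcnj8 at 0.87 (SE 0.563), Pdgfrb at 0.66 (SE 0.430) and Abcc9 at 0.09 (SE 0.337), none past the threshold. The contractile genes were at -1.08 (Cnn1, SE 0.437, edgeR adjusted p = 0.0829), -0.63 (Myh11, SE 0.350), -0.17 (Acta2, SE 0.176) and 0.17 (Tagln, SE 0.141). The contractile median was -0.40 and the pericyte median 0.87, beside -0.059 for all genes.

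Both sides of that split moved when the libraries of high gland share, all of day 3, were left out. Mcam was at 0.74 (SE 0.285, edgeR adjusted p = 0.187) without the 4 of high lipid gland share and at 0.50 (SE 0.213, adjusted p = 0.333) without all 6, while calls over all genes fell to 1.48% and 0.431%. Cnn1 turned from -1.08 to 0.10 and 0.15, and Myh11 from -0.63 to 0.19 and 0.07. Abcc9 turned the other way, from 0.09 to -0.19 and -0.47 (SE 0.216, edgeR adjusted p = 0.359). In the remaining 18 libraries the contractile median was 0.05 and the pericyte median 0.13. The Mcam call was kept without any single library (1.01 to 1.33 on the log2 scale). Cnn1 was called in addition without IR day 3 replicate 2 or DR day 3 replicate 4. Those libraries held its 2 lowest levels among replanted libraries, at 3.26 and 7.14 CPM. The shares of all genes called without single libraries are not given here, so these calls have no background beside them.

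**Figure D2:**
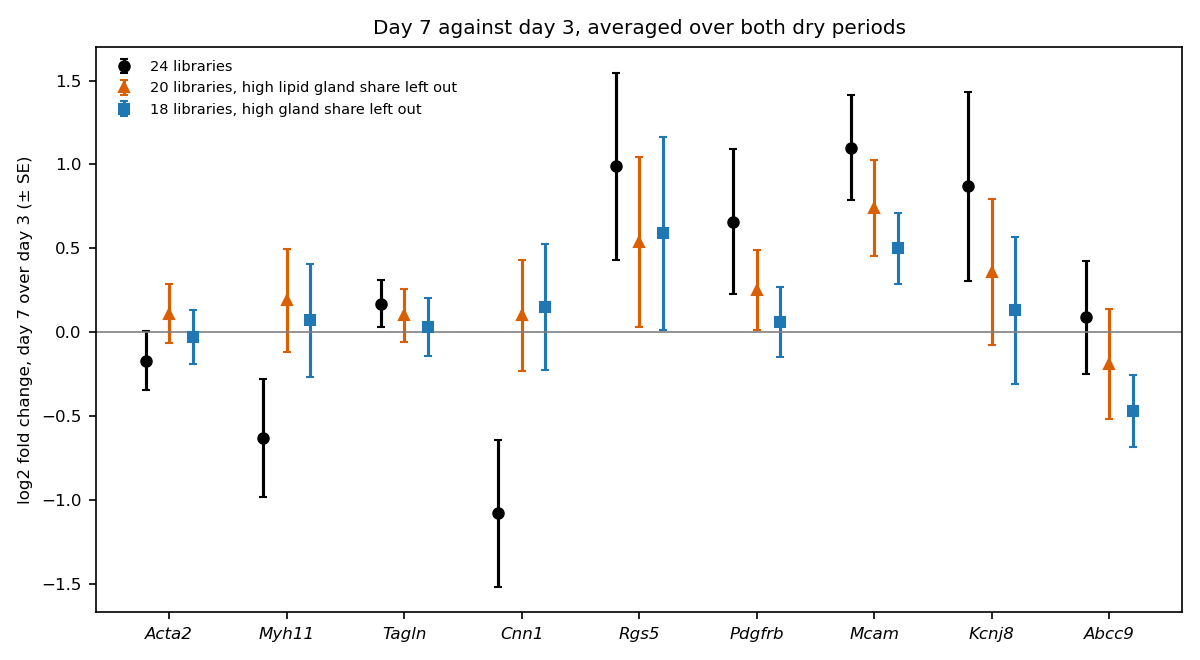
Log2 fold change of day 7 over day 3, averaged over both dry periods, with its SE (bars), for the 9 tested members. Circles are all 24 replanted libraries, triangles the 20 left without high lipid gland share and squares the 18 left without high gland share of either kind. Cnn1 and Myh11 lie below 0 with all libraries and above 0 in both smaller sets, and Mcam stays above 0 in all 3.

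Within each dry period no member was called. In IR the contrast of day 7 with day 3 called 0.139% of all genes and in DR 0.0087%, with 2340 and 2589 genes at an unadjusted p under 0.05. Mcam was at 1.17 in IR (SE 0.443, edgeR adjusted p = 0.159) and 1.03 in DR (SE 0.442, adjusted p = 0.174). Kcnj8 was at 2.02 in IR (SE 0.824, edgeR adjusted p = 0.184) and -0.28 in DR (SE 0.784, adjusted p = 0.865), and Cnn1 at -0.86 in IR (SE 0.616, adjusted p = 0.421) and -1.29 in DR (SE 0.620, adjusted p = 0.220). Mcam and Kcnj8 in IR and Mcam and Cnn1 in DR had an unadjusted p under 0.05. Without the 6 libraries of high gland share 0 members were called in either, with Mcam at 0.51 in IR and 0.48 in DR, Kcnj8 at 1.33 and -1.07, and Cnn1 at 0.29 and 0.01. DESeq2 called 0 members in either, among 6.51% and 9.26% of genes. Limma-voom with sample quality weights called 4 in IR (Pdgfrb, Mcam, Kcnj8 and Abcc9) among 38.1% of genes and 2 in DR (Cnn1 and Mcam) among 28.6%.

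The members were compared across libraries within and between the contractile and the pericyte genes. Pearson's r was taken over the log2 CPM of the 24 replanted libraries after each group's mean was removed, as a description: the points share depth, scaling and tissue makeup. Among the 6 contractile pairs r ran from 0.28 to 0.90 with a median of 0.54, and Myh11 with Cnn1 was the closest. Among the 10 pericyte pairs it ran from 0.21 to 0.89 with a median of 0.61, and Mcam with Abcc9 was the closest. Kcnj8 and Abcc9, the subunits of the same channel, were at 0.67, below Mcam with Kcnj8 at 0.79. Across the sets the median was -0.29, from -0.75 (Cnn1 with Pdgfrb) to 0.41 (Tagln with Rgs5), and 5 of the 20 pairs were positive. Tagln and Rgs5 did not follow the division: their r of 0.41 was above that of Tagln with Cnn1 (0.28) or Acta2 (0.38) and of Rgs5 with Mcam (0.28) or Abcc9 (0.21).

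In the 18 libraries without high gland share the contractile set was tighter and the median across the sets was near 0. The contractile median was 0.72 (0.62 to 0.86), and Tagln joined the others, at 0.86 with Myh11 against 0.44 in all 24. The pericyte median was 0.41 (-0.16 to 0.76), with Rgs5 near or below 0 against the other pericyte genes and between 0.37 and 0.47 with Myh11, Tagln and Cnn1. Across the sets the median was 0.04. The contractile genes also moved with the list of gland myoepithelium and epithelium (such as Krt14 and Epcam) in these 18 libraries. With the mean of that list r was 0.82 for Cnn1, 0.70 for Myh11, 0.68 for Tagln and 0.36 for Acta2. It was 0.59 for Rgs5 and between -0.57 and -0.08 for the other tested pericyte genes. Over the 24 it was 0.45 for Cnn1, 0.35 for Myh11, 0.46 for Tagln and 0 for Acta2. Of IR day 3, the 18 libraries keep replicates 1, 2 and 5, and replicate 2 lay far below the others. Its summed level of that list was 111 CPM, against 4070 in replicate 1 and 1330 in replicate 5. Cnn1 was at 3.26 CPM there against 17.1 and 25.1, Myh11 at 13.6 against 92.9 and 75.6, and Tagln at 50.1 against 130 and 136. How far the r of the 18 libraries, also among the contractile genes, rest on this library was not tested. The part of epithelium in these correlations was not tested either.

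**Figure D3:**
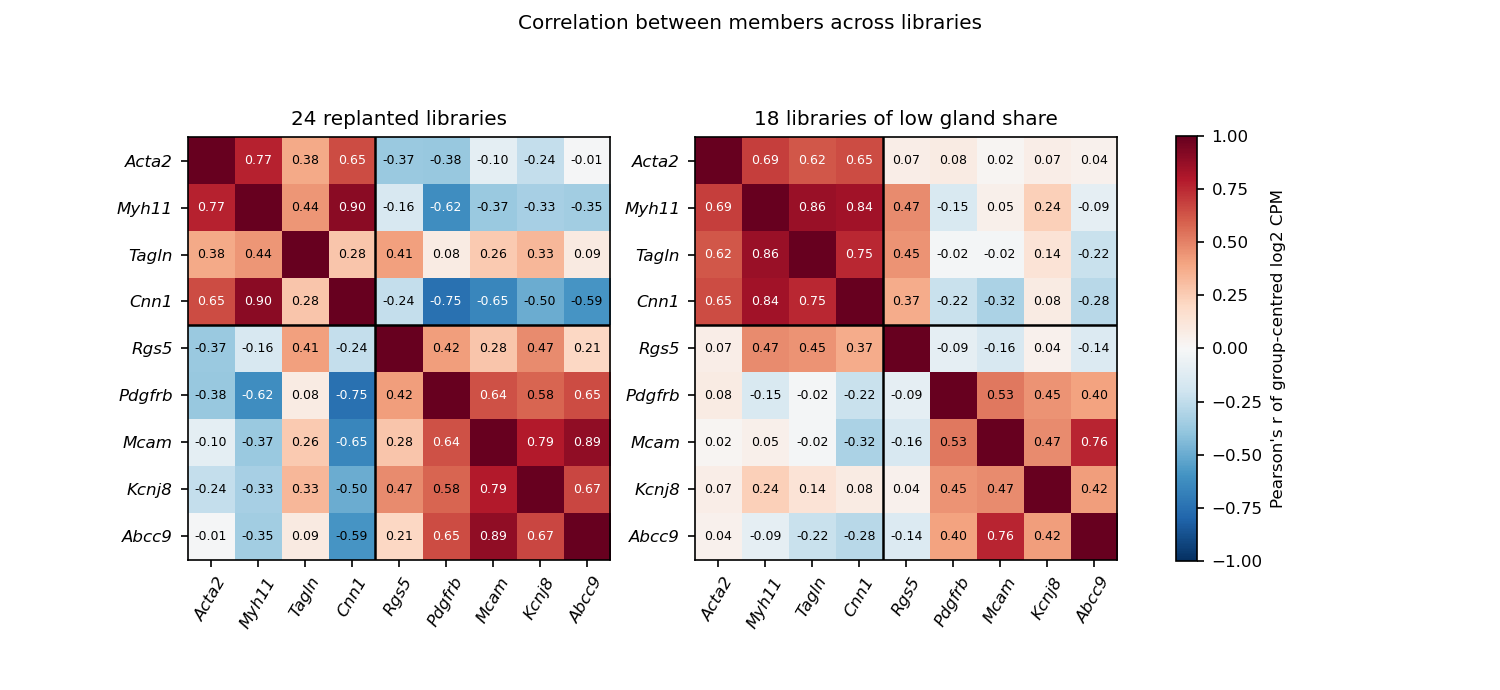
Pearson's r between members across the 24 replanted libraries (left) and the 18 without high gland share (right), from group-centred log2 CPM, with lines between the contractile and pericyte genes. Red is positive and blue negative. The blue block between the sets in the left panel, with a median of -0.29, is pale in the right panel, with a median of 0.04.

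Mcam moved with the endothelial list across libraries. With the mean of the endothelial list (14 genes such as Pecam1, Cdh5 and Tie1) r was 0.94 for Mcam, 0.90 for Abcc9, 0.81 for Kcnj8 and 0.78 for Pdgfrb, but 0.33 for Rgs5 and -0.71 for Cnn1, over the same 24 libraries. In the 18 without high gland share it was 0.80 for Mcam, 0.87 for Abcc9, 0.57 for Kcnj8, 0.67 for Pdgfrb, -0.15 for Rgs5 and -0.30 for Cnn1. With the mean of the list labelled myofibroblast (matrix and adhesion genes, not specific to that cell) r was 0.89 for Pdgfrb and -0.87 for Cnn1 over the 24. Over the 18 it was 0.50 and -0.66. With the mean of the nasal gland list r over the 18 was -0.67 for Abcc9, -0.58 for Mcam, -0.47 for Kcnj8 and -0.45 for Pdgfrb. It was 0.29 for Rgs5 and between 0.09 and 0.34 for the contractile genes. The summed level of the endothelial list was 147 and 158 CPM in the 2 libraries of high nasal gland share, 218 to 313 in the 4 of high lipid gland share, 226 to 509 in the other 6 of day 3 and 281 to 578 at day 7. These values move with Mcam, and their part in its difference between days was not tested.

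**Figure D4:**
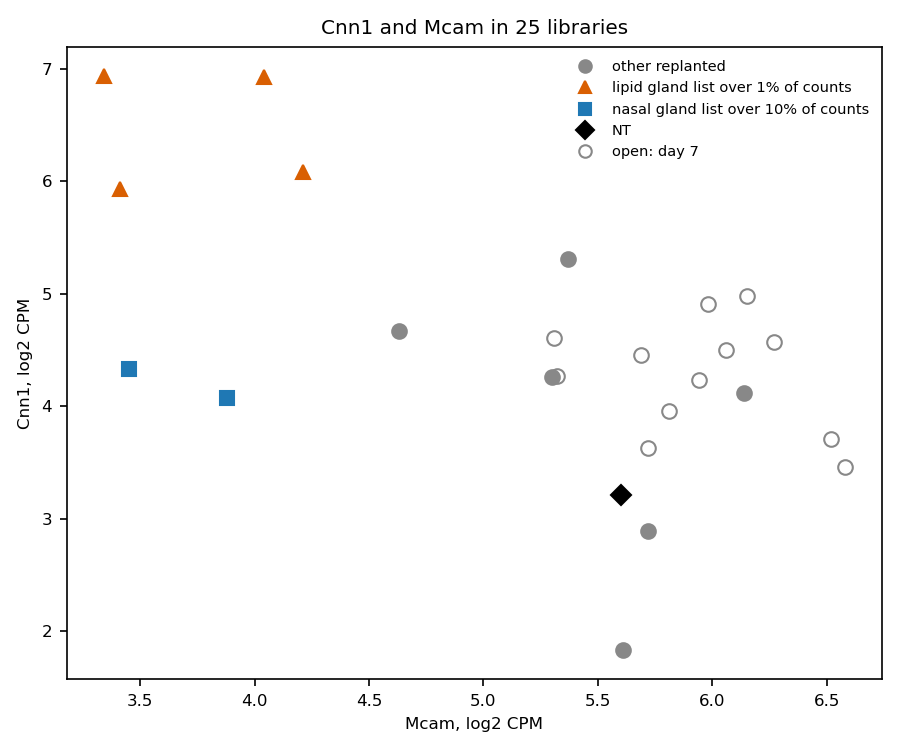
Cnn1 against Mcam, both in log2 CPM, in 25 libraries. Filled symbols are day 3, open symbols day 7, and the diamond NT. The 4 libraries of high lipid gland share (triangles) are at the upper left, with the highest Cnn1 levels and Mcam between 9.86 and 18.2 CPM.

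The genes whose profile was most like the contractile set, by r with the mean of its 4 standardised members over the 24 libraries, were Sbds (0.90), Inpp1 (0.89), Sf3b6 (0.88), Mfsd2a (0.87) and Tomm22 (0.86). They lay between 0.81 and 0.91 in the 18 libraries. Those most like the 5 tested pericyte genes were Lyc2 (0.96), Aebp1, Bst1, Cdk1 and C1r (0.95 each), and between 0.78 and 0.90 in the 18. None of these 10 genes belongs to the lists of mural or contractile genes used here.

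Wider lists were described beside the members over day 7 against day 3, averaged over both dry periods. In the list of other smooth muscle contraction genes, 5 of 17 tested genes were positive and 0 were called, with a median of -0.28. The 2 of smallest p were Lmod1, the actin nucleator leiomodin, at -0.79 (SE 0.281, edgeR adjusted p = 0.0533) and Cnn3, a calponin of many cell types, at 0.41 (SE 0.183). Lmod1 was at 30.6 to 60.4 CPM in the 4 libraries of high lipid gland share, 7.55 to 36.7 in the 6 other day 3 libraries of low gland share and 7.26 to 23.2 at day 7, so the 4 overlap the other day 3 libraries, unlike for Cnn1 and Myh11. Cnn3 was lower in the 4 than at day 7, at 45.5 to 131 CPM against 140 to 237. In the list of serum response factor, its cofactors and targets, 7 of 7 were positive and 0 called (median 0.34), with Srf at 0.31 (SE 0.115, edgeR adjusted p = 0.0605) and the actin crosslinker Flna at 0.71 (SE 0.286, adjusted p = 0.0813). Without the 6 libraries of high gland share this list was 4 of 8 positive with a median of 0.04, and the contraction list 6 of 17 with -0.11, each with 0 called.

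Other mural genes were mostly positive. Of 18 tested, 17 were positive with a median of 0.71, and 3 rose, namely the endothelin receptor Ednra (0.74, SE 0.192, edgeR adjusted p = 0.0135), the Notch target Heyl (0.80, SE 0.235, adjusted p = 0.0233) and the transcription factor Tbx18 (1.59, SE 0.493, adjusted p = 0.0296). In the list of mural recruitment signals 15 of 18 were positive (median 0.45) and 2 rose, Notch2 (0.70, adjusted p = 0.0255) and the Notch feedback regulator Nrarp (0.92, adjusted p = 0.0458). The endothelial list had 12 of 13 positive (median 0.55), and the receptor Tie1 rose by 0.99 (SE 0.323, adjusted p = 0.0371). These are 3 of 18, 2 of 18 and 1 of 13 genes, all of them higher at day 7. Over all genes 18.8% were called in either direction, and 797 of 11492 were called higher, which is the like background.

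Without the 6 libraries of high gland share none of these 6 genes was called, among 0.431% of all genes. The mural list was then 15 of 18 positive with a median of 0.27, the recruitment list 10 of 18 with 0.03 and the endothelial list 8 of 13 with 0.06, beside a median of -0.003 over all genes. Tbx18 was at 1.37 (SE 0.605, edgeR adjusted p = 0.349), Heyl at 0.69 (SE 0.269, adjusted p = 0.282) and Ednra at 0.49 (SE 0.200, adjusted p = 0.306). Tbx18 had a median of 3.07 CPM at day 7 and 1.64 in the 6 day 3 libraries of low gland share, and the ranges overlap.

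The list labelled myofibroblast, of matrix and adhesion genes, was mostly positive as well. Its name is a label and does not identify wound fibroblasts, and it holds the periodontal ligament gene Postn. Its summed level was highest in NT, at 149000 CPM, against 39800 to 97300 in IR day 7 and 33900 to 54700 in DR day 7. Of 17 tested, 15 were positive with a median of 0.79, and 2 rose, the collagen gene Col1a1 (1.54, SE 0.471, edgeR adjusted p = 0.0279) and the integrin Itgb5 (0.57, SE 0.188, adjusted p = 0.0387), while Acta2 was at -0.17 and Tagln at 0.17. Col1a1 was at 363 to 6950 CPM in the 4 libraries of high lipid gland share, 14700 to 34600 in the other 6 of day 3 with low gland share and 29100 to 84700 at day 7. Without the 4 libraries Col1a1 rose by 1.05 (SE 0.231, adjusted p = 0.0289), and without the 6 it was at 0.86 (SE 0.201, adjusted p = 0.0764). Acta2 was at 0.11 and -0.03 in the same fits. The list as a whole was 11 of 18 positive (median 0.34) without the 4, and 10 of 18 (median 0.15) with 0 called without the 6, and Itgb5 was called in neither fit. NT held Col1a1 at 126000 CPM, above all replanted libraries, and Acta2 at 225 CPM, inside their range.

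**Figure D5:**
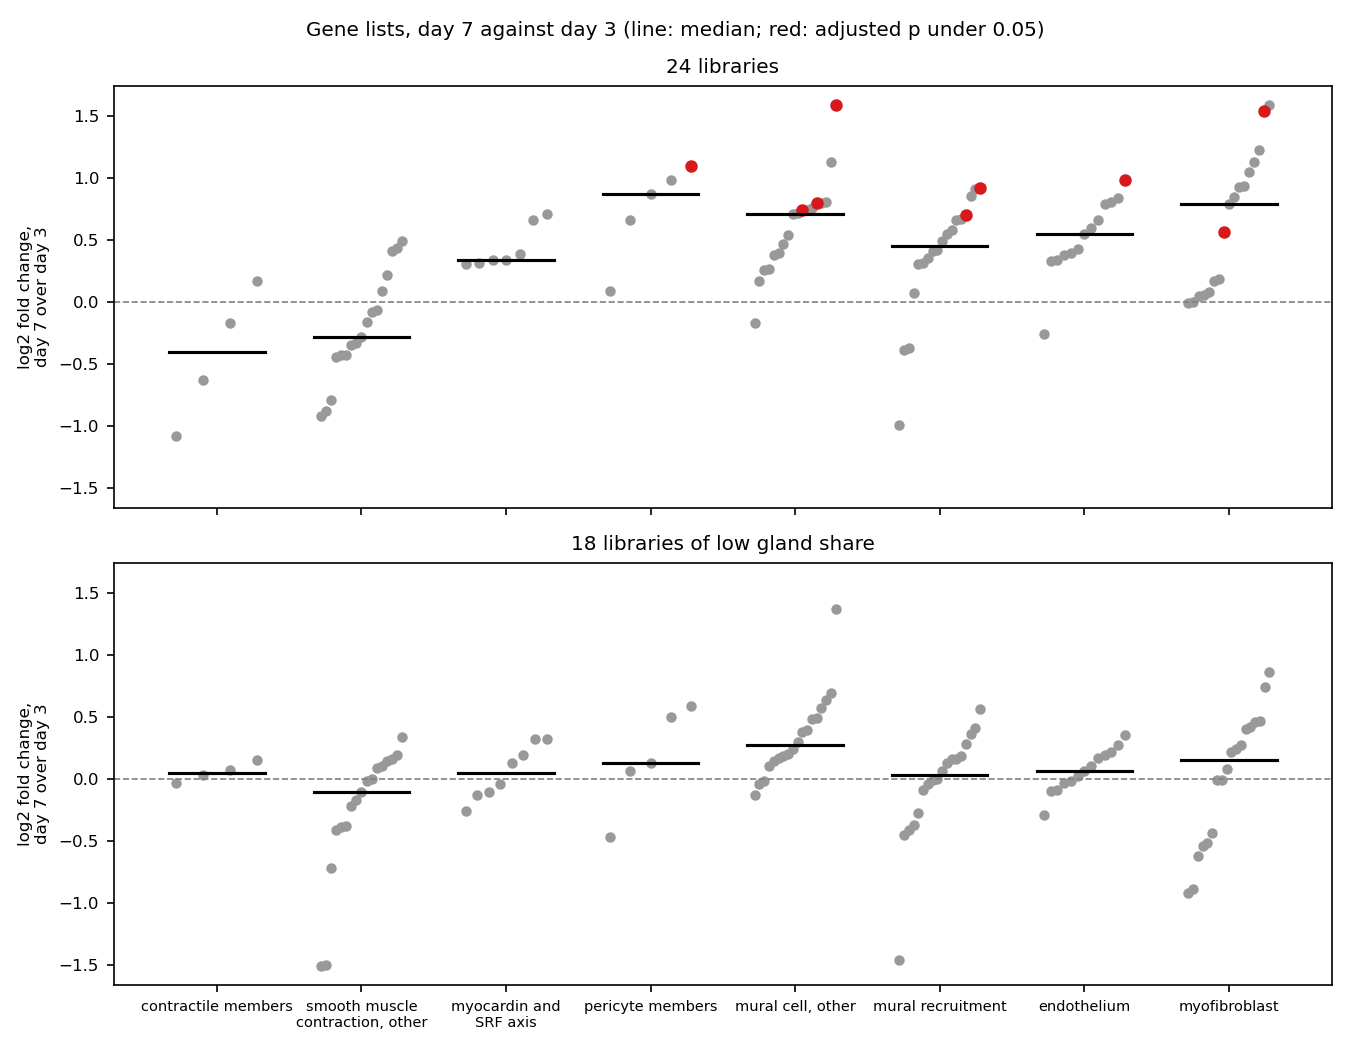
Log2 fold change of day 7 over day 3, averaged over both dry periods, for each tested gene of 8 lists (grey, and red where the adjusted p was under 0.05), with the list's median as a line, in all 24 libraries (top) and in the 18 without high gland share (bottom). The medians run from -0.40 (contractile members) to 0.87 (pericyte members) at the top and from -0.11 to 0.27 at the bottom.

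Lists of other tissues were described in the same contrast. All 14 skeletal muscle genes were negative (median -1.92), and the fast-muscle genes Pvalb, Atp2a1 and Myh4 fell. The average joins unlike dry periods. In IR 13 of the 14 were positive (median 0.74), in DR all 14 were negative (median -4.52), and 0 were called in either. Of 6 tested genes of gland myoepithelium and epithelium, 3 were negative and Epcam fell. In the lipid-secreting gland list 4 of 5 tested genes were negative and Elovl3, Mogat1 and Thrsp fell, and in the nasal gland list 7 of 9 were negative, Obp3 and Bpifb6 fell and Bpifb1 rose. Cardiac genes were near 0, with Myl7 at 0 counts in all 25 libraries and 2 of 5 tested, neither called. Of the 4 ribosomal RNA entries 1, Rn5-8s, fell. These calls stand against a background of 18.8%, and without the 4 or the 6 libraries of high gland share 0 genes of any of these lists were called, among 1.48% and 0.431% of all genes. Averaged over both dry periods, the skeletal muscle genes were all negative in those fits too (medians -1.99 and -2.26). The part of these tissues in the members' differences was not tested. For the drying contrasts 0 genes of any list were called at day 3 or day 7.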

How the data were processed

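RNA was extracted with Trizol from tooth and periodontal ligament, and 500 ng of total RNA per sample entered 3′ libraries (Lexogen QuantSeq), per the labels' protocols. The authors deposited whole-number read counts per gene symbol for each library, with no normalization. Bowtie2, edgeR and the builds mm10 and rn6 are named in the submitters' processing notes, and the role of each is not given in the sources used here. Of 17048 rows, 149 symbols were repeated, and the row of highest total was kept. Depth is given with the results, and intervals and floors cover counting error only.

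Counts of the 24 replanted libraries were fitted with edgeR 4.0.16 (R 4.3.3) by its quasi-likelihood test, with TMM scaling, edgeR's filter on low counts, 4 group means and 20 residual degrees of freedom. P-values were adjusted by Benjamini-Hochberg over 11492 genes, and genes under 0.05 were called. Log2 CPM used a prior count of 2. Fold changes come from fitted mean counts, so high libraries weigh more in them than in medians. The fit was tested on simulated data. Alternatives used DESeq2 1.42.0, limma 3.58.1, other scalings and filters, and left-out libraries.

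The members and lists were chosen with earlier results of these data known. Named genes are the members, in each list the called genes (at most 4 by smallest p, otherwise the 2 of smallest p between days), and the 5 genes most like each set of members. Same-numbered IR and DR libraries deviated together at day 7 (r from 0.21 to 0.72 in 6 of 6 pairs), so there the numbers pair the libraries by the data, while the labels do not say what a number stands for. At day 3, 1 of 6 pairs exceeded 0.1. Smallest chi-square per gene between libraries of a group was 24.8, so none were near duplicates.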

Additional observations from a re-analysis of the deposited data

Results flagged for a closer look

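Among 36 gene-group combinations tested for a library far from its group (Dixon's critical value for 6 libraries, 0.625), 2 stood out. Chance gives about 1 in 20, and 2 of 36 is near that share. Rgs5 in DR day 7 replicate 5 was at 0.411 CPM, while the other 5 libraries of that group were at 1.5 to 2.6. In log2 CPM it was at -0.51 against 0.84 to 1.53. Pdgfrb in IR day 3 replicate 6 was at 0 CPM, while the others of that group were at 9.44 to 42.4. In log2 CPM it was at -1.79 against 3.28 to 5.42. Both gaps are wide on the log2 scale and less so in CPM. IR day 3 replicate 6 is among the 4 libraries of high lipid gland share.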

How the results depend on the processing

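Of the log2 fold changes recomputed under alternatives, 1125 kept direction and side of the threshold, 39 reversed, 12 passed it and 2 no longer did. Leaving out the 6 libraries of high gland share, or the 4 of high lipid gland share, was chosen after seeing the data, as was the replicate block at day 7. The cause of the changes below was not tested.

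For day 7 against day 3, averaged, the members called (1, among 18.8% of genes) became 0 without the 6 and 0 without the 4, among 0.431% and 1.48%. Limma-voom called 4 (Pdgfrb, Mcam, Kcnj8, Abcc9) among 47.6% of genes. DESeq2 called 2 (Cnn1 and Mcam, Cnn1 at -1.07, DESeq2 adjusted p = 0.0452) among 26.4%. Neither count, out of 9 tested members, is above its background. Without single libraries the members called ranged from 1 to 2. In IR they ranged from 0 to 1 without single libraries (1, Mcam, without IR day 3 replicate 1). Shares over all genes without single libraries are not given here. Limma-voom called 4 in IR among 38.1% of genes and 2 in DR among 28.6%. It called 1 (Abcc9) for DR against IR at day 3, among 10.3%, and 1 (Abcc9) for the interaction, among 4.54%.

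Reversals of values given in the report, without the 6 and without the 4 in that order, were as follows. For DR against IR at day 3, Acta2 was at -0.41 and -0.14, Myh11 at -0.28 and -0.04 and Rgs5 at 0.22 and 0.10, and without the 4 Tagln was at 0.03 and Mcam at 0.38. For day 7 against day 3, Cnn1 was at 0.29 and 0.19 in IR, 0.01 and 0.01 in DR and 0.15 and 0.10 averaged. Within a dry period, where no other value is given for them, Myh11 also turned positive in DR (0.28 and 0.28), as did Acta2 (0.12 and 0.12), and in IR both were positive without the 4 (Myh11 0.10, Acta2 0.11). Averaged, Myh11 was at 0.07 and 0.19, Abcc9 at -0.47 and -0.19, and Acta2 at 0.11 without the 4. Limma-voom put Mcam at 0.43 for DR against IR at day 3, Kcnj8 at 0.90 for the days in DR and Acta2 at 0.04 for the days averaged. Mcam at day 3 was at 0 without ribosomal RNA entries.

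Without single libraries, DR against IR at day 3 ranged from -0.03 to 0.26 for Acta2, -0.22 to 0.03 for Tagln, -0.67 to 0.05 for Rgs5 and -0.25 to 0.45 for Mcam. Day 7 against day 3 ranged from -1.10 to 0.20 for Cnn1 in IR, -0.75 to 0.11 for Kcnj8 in DR and -0.02 to 0.29 for Abcc9 averaged.

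With the replicate block in all groups, Mcam between days was at 1.13 (edgeR adjusted p = 0.0416) and 1197 genes (10.4%) were called in place of 2156, and Mcam for DR against IR at day 3 was at 0.24. With the block and day 7 libraries alone, 0 members and 0 of 10782 genes were called for DR against IR. The block changed no call of a member. Fitting only the 2 groups compared gives no value for contrasts over all 4. Low counts limit Rgs5, Kcnj8 and Notch3.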
